A study of Mus musculus with 8 samples.

Results

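Esrrb, Nr5a2, Tfcp2l1, Klf2, Klf4, Klf5, Tbx3 and Prdm14 are 8 genes for transcription factors of the naive pluripotent state. They were chosen by name from the 21938 protein-coding genes of the mouse annotation, and the peaks of each gene were those that overlapped its body or the 20 kb on either side of it. The cells were fibroblasts of mid-gestation mouse embryos (MEFs) from a cross of OG2 males, which carry an Oct4-GFP reporter, with 129 females, on day 5 of reprogramming. Both arms received Oct4 by retrovirus. The NanogWT arm, labelled Nanog+Oct4, also received FLAG-tagged Nanog, and the NanogBiD arm, labelled NanogN70+Oct4, received Nanog with the BRG1-interacting domain of SS18 joined to its N-terminus. CUT&Tag, in which a transposase tethered to an antibody cuts the DNA beside its target, was used for FLAG, BRG1 (Smarca4), H3K27ac and H3K4me1, giving 8 libraries in all and 1 for each target and arm. The MEFs were a mixed primary culture in which not every cell need have taken up both viruses, and the anti-FLAG libraries read the introduced NANOG and not the cells' own.

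In embryonic stem cells these factors bind many of the same enhancers as OCT4, SOX2 and NANOG, and they hold the cells in the self-renewing state sustained by LIF. Their genes are among those that fibroblasts reactivate on the way to pluripotency, although Klf4, Klf5, Klf2 and Tbx3 are also used by other cell types. BRG1 is the ATPase of the BAF remodelling complex, of which SS18 is a subunit, H3K27ac marks active promoters and enhancers, and H3K4me1 marks enhancers whether or not they are active. The comparison of the arms asks where NANOG, BRG1 and the histone marks lay when NANOG carried the SS18 domain. Each arm held 1 merged library per target, so no test between arms was possible, and the sequencing depth is unknown. Intervals given here are 95% exact intervals that cover counting error only. A peak's height is the tag pileup at its summit, not scaled to depth, and list length, depth and arm cannot be told apart. Of 10 fibroblast marker genes, 9 had an H3K27ac peak within 2 kb of a start site in both arms, all but Prrx1 (57.1% of protein-coding genes in NanogWT and 59.9% in NanogBiD). At the same start sites BRG1 was found at 7 markers in NanogWT and 10 in NanogBiD (53.9% and 55.5% of protein-coding genes), and H3K4me1 at 9 and 6 (63.3% and 62%).

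The sequences shown are those under FLAG summits at which FLAG or BRG1 was called in 1 arm only. They are printed from the plus strand of the mm10 reference, 75 bp on either side of the FLAG summit, and none overlapped an annotated exon. Distances name the centre of the merged region, and the summits themselves lay at -2.37 kb from the 5′ end of Tfcp2l1 and at 10.55 kb from that of Tbx3. Capitals mark matches to AP-1 (TGANTCA), OCT (ATGCAAAT) or TEAD (GGAATG, on the other strand CATTCC), searched on both strands. The first 4 had FLAG and BRG1 peaks in NanogBiD and neither in NanogWT, ranked by the smaller of the FLAG and BRG1 summits. The Tfcp2l1 intron was the single region with both in NanogWT alone. The last pair was chosen after the values were seen. It holds the tallest NanogBiD-alone FLAG summit, upstream of Tfcp2l1, which had no BRG1 peak, and the tallest BRG1 peak that NanogBiD alone had at a FLAG region of both arms, downstream of Klf4.
Klf2, 8.0 kb upstream, FLAG 17 and BRG1 17 tags in NanogBiD, chr8:72310973-72311123: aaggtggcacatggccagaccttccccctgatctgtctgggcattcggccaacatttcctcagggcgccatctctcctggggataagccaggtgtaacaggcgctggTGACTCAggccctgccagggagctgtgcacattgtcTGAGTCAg
Esrrb intron at 34.5 kb, FLAG 14 and BRG1 12 tags in NanogBiD, chr12:86395428-86395578: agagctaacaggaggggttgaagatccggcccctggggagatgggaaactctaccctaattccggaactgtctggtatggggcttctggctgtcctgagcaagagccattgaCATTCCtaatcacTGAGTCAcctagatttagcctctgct
Tbx3 intron at 10.2 kb, FLAG 11 and BRG1 11 tags in NanogBiD, chr5:119681148-119681298: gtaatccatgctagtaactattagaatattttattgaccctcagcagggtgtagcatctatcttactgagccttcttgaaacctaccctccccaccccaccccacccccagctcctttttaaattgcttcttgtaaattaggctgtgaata
Esrrb intron at 4.0 kb, FLAG 16 and BRG1 9 tags in NanogBiD, chr12:86364877-86365027: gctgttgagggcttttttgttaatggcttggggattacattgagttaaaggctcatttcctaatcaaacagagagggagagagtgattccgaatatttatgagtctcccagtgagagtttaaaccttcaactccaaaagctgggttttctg
Tfcp2l1 intron at 45.9 kb, FLAG 10 and BRG1 10 tags in NanogWT, chr1:118673684-118673834: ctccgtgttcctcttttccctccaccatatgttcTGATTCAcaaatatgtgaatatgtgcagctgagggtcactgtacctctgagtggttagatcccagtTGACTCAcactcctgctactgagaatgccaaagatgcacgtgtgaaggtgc
Tfcp2l1, 2.0 kb upstream, FLAG 24 tags in NanogBiD, chr1:118625501-118625651: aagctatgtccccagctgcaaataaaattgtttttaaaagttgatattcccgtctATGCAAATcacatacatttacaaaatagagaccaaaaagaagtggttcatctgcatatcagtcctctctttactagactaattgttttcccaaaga
Klf4, 6.1 kb from the 5′ end, FLAG 20 and BRG1 17 tags in NanogBiD, chr4:55526249-55526399: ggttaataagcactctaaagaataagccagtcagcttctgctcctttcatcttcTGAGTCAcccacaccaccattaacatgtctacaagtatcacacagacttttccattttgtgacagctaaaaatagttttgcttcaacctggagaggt

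The motif letters differed among these stretches. The Klf2 upstream element held 2 AP-1 matches, the Esrrb intron at 34.5 kb held 1 AP-1 and 1 TEAD match, and the Tfcp2l1 intron that only NanogWT occupied also held 2 AP-1 matches. The Tbx3 intron and the Esrrb intron at 4.0 kb held none of the 7 motifs searched. The element upstream of Tfcp2l1 held an octamer, the letters OCT4 is known to read, and was poor in G and C, at 33.8%.

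Over the 8 genes together, 15 FLAG peaks were counted in NanogWT and 22 in NanogBiD. The ratio was 1.47 (0.727 to 3.04), against 1.27 for the whole lists. BRG1 peaks numbered 8 and 16, a ratio of 2.0 (0.808 to 5.40), against 1.74. H3K27ac peaks numbered 10 and 15, a ratio of 1.5 (0.630 to 3.73), against 1.20. The intervals of these 3 ratios contained both 1 and the ratio of the whole list. H3K4me1 had 37 peaks in NanogWT but only 21 in NanogBiD, and the ratio was 0.568 (0.316 to 0.995), against 0.791. Its interval contained the ratio of the whole list and ended just below 1. With peaks assigned by their summit the counts were 36 and 21 and the interval, 0.324 to 1.03, contained 1, as it did in all 7 alternatives tried. With each list limited to its 20000 highest-scoring peaks, BRG1 had 7 peaks in each arm at these genes and H3K27ac 6 in each, while H3K4me1 had 11 and 7.

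Counted by gene, FLAG peaks were more numerous in NanogBiD at 6 of 8 genes and fewer at Nr5a2 and Klf5. Of all protein-coding genes with a FLAG peak in either arm, 50.2% had more in NanogBiD and 17.6% fewer. BRG1 peaks were more numerous in NanogBiD at 5 of the 7 genes with any (53.2% of all genes with one), namely Esrrb, Nr5a2, Klf2, Klf4 and Tbx3, fewer at Tfcp2l1 (12.7%) and equal at Klf5. H3K27ac peaks were more numerous in NanogBiD at Esrrb, Nr5a2, Tfcp2l1 and Tbx3, 4 of the 7 genes with any (37.4%), and fewer at none of the 7 (17.4%). H3K4me1 peaks were fewer in NanogBiD at 7 of 8 genes (51.6%), equal at Prdm14 and more numerous at none of the 8 (19.7%). These tallies depend on low-scoring peaks. With each list limited to its 20000 highest-scoring peaks, FLAG peaks were more numerous in NanogBiD at 3 genes and fewer at 2. BRG1 peaks were more numerous at 2 and fewer at 2, and H3K4me1 peaks at 1 and 3. H3K27ac peaks then differed in number at no gene, nor did they with scores of at least 100.

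At 4 of the 8 genes a target was called in 1 arm only. BRG1 was called in NanogBiD and not in NanogWT at Esrrb and Nr5a2, 2 of 7 genes (8.27% of all genes with a BRG1 peak), and in NanogWT and not in NanogBiD at Tfcp2l1 (1.96%). FLAG was of NanogBiD alone at Prdm14 (4.74%) and of NanogWT alone at none of the 8 (2.17%). H3K27ac was of NanogBiD alone at Nr5a2 (5.28%) and of NanogWT alone at none of the 7 (1.57%). H3K4me1 was called in both arms at all 8 genes, where 1.93% of genes had it in NanogBiD alone and 3.27% in NanogWT alone. Among genes with a peak of the target in either arm, the median difference in BRG1 peaks was 1 for the 7 genes and 1 for all protein-coding genes, with means of 1.14 and 1.01. For H3K4me1 the median difference was -1.5 for the 8 genes and -1 for all, with means of -2.0 and -0.824.

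**Figure D1:**
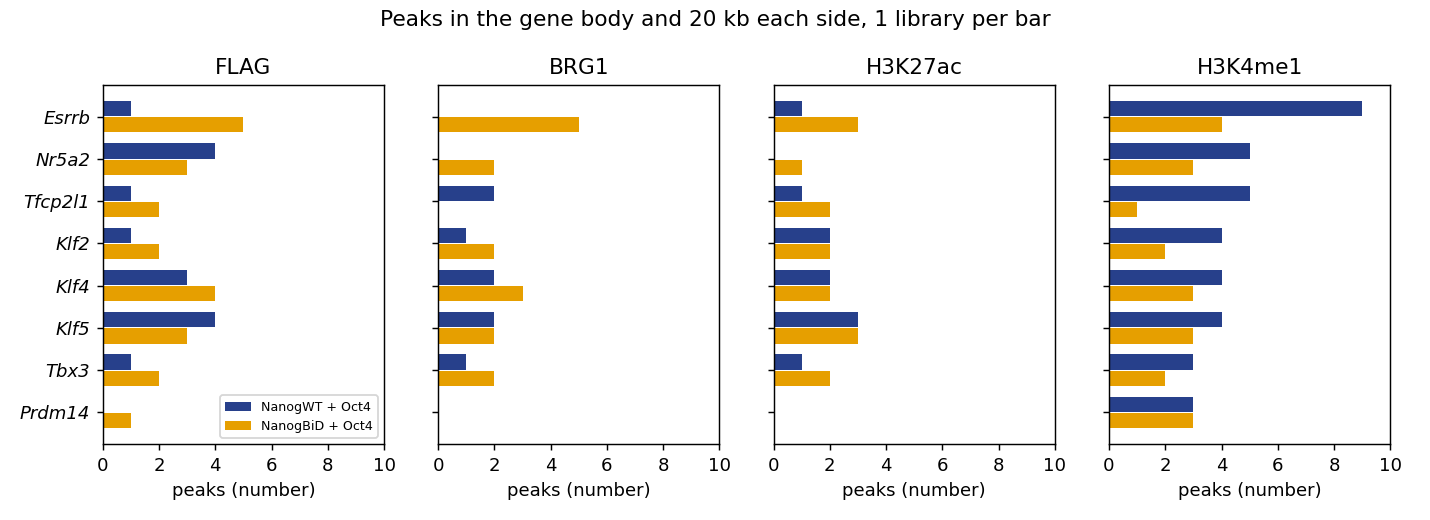
Number of peaks (x axis) in the window of each gene (y axis), by target, in NanogWT (blue) and NanogBiD (orange). Each bar is 1 library, so there is no error bar. Esrrb and Nr5a2 had BRG1 bars in NanogBiD only, at 5 and 2 peaks, Tfcp2l1 had one in NanogWT only, at 2 peaks, and Prdm14 had none.

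The genes differed in whether their start sites were occupied in both arms. At Klf2, Klf4, Klf5 and Tbx3 the start site carried FLAG, BRG1, H3K27ac and H3K4me1 in both arms. At Esrrb, Nr5a2, Tfcp2l1 and Prdm14 no region had FLAG and BRG1 in both arms. Within 2 kb of an annotated start site, 5 of the 8 genes had a BRG1 peak in each arm (53.9% of protein-coding genes in NanogWT and 55.5% in NanogBiD), but Tfcp2l1 was among the 5 in NanogWT and Nr5a2 in NanogBiD. For H3K27ac the same count was 5 in NanogWT (57.1%) and 6 in NanogBiD (59.9%), Nr5a2 being the added gene. H3K4me1 was at a start site of all 8 genes in both arms (63.3% and 62%).

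Esrrb, the orphan nuclear receptor that acts with OCT4 and NANOG in the stem cell network, spans chromosome 12, 86361117 to 86521628, on the plus strand. The study named it as a target of NanogBiD from this same experiment, so its values are not independent of that choice. Its 5 NanogBiD BRG1 peaks, against 0 in NanogWT, were a difference reached or passed by 3.62% of protein-coding genes with or without a peak. The window of 200.5 kb was the longest of the 8, where the median over all protein-coding genes was 57.4 kb. The BRG1 summits lay 11.3 kb upstream of the gene's 5′ end and, inside its introns, 3.93, 34.6, 37.6 and 72.8 kb downstream of it. Their heights were, in that order, 8, 9, 12, 8 and 7 tags. These are low peaks, since between 60.2% and 99.6% of all peaks of that list stood at least as high, and their scores were 56.7 to 88.4, where the median of the list was 107.

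FLAG accompanied 4 of the 5 BRG1 peaks of Esrrb in NanogBiD, at 13, 16, 14 and 11 tags, with no FLAG peak of NanogWT at those places. The fifth, at 72.6 kb, was the place of the only FLAG peak that NanogWT had at the gene, at 12 tags, and FLAG was not called there in NanogBiD. H3K27ac appeared in NanogBiD at the regions 4.0, 34.5 and 72.6 kb into the gene, at 10, 13 and 11 tags, and in NanogWT at 128.7 kb alone, at 12 tags. BRG1 overlapped 12 of the 15 H3K27ac peaks of NanogBiD at the 8 genes, those of Esrrb among them, against 78.5% of the whole list.

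H3K4me1 had been called more widely at Esrrb in NanogWT, with 9 peaks of 10 to 26 tags, than in NanogBiD, with 4 of 12 to 15 tags. A loss of 5 or more was seen at 2.91% of all protein-coding genes, those without an H3K4me1 peak among them. At 72.6 kb, the tallest H3K4me1 summit of the gene, the height was 26 tags in NanogWT and 12 in NanogBiD (ratio 0.462, interval 0.212 to 0.948). That interval does not allow for the choice of the tallest summit. Nor does it take off the shift of all shared H3K4me1 regions, whose median log2 change was -0.18. Of the 5 regions with BRG1 in NanogBiD, 4 held H3K4me1 in NanogWT and only the one at 72.6 kb held it in NanogBiD. The region 34.5 kb into the gene (86395119 to 86396054 in the merged FLAG and BRG1 lists), which holds the AP-1 and TEAD letters shown above, had no H3K4me1 peak in either arm.

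Nr5a2 encodes LRH-1, a nuclear receptor that can stand in for OCT4 in reprogramming and activates Oct4, and lies at chromosome 1, 136842571 to 136960448, on the minus strand. FLAG had 4 peaks in NanogWT and 3 in NanogBiD, and BRG1 had 0 and 2. The BRG1 peak in the intron overlapped FLAG peaks of both arms, and the other overlapped the wide FLAG peak of NanogBiD but not the narrower one of NanogWT, although merging placed all of them in 1 region. In the region centred 10.8 kb inside the gene, over an internal annotated start site, FLAG was 14 tags in NanogWT against 24 in NanogBiD, or 1.71 times (interval 0.852 to 3.59). BRG1 (7 tags) and H3K27ac (9 tags) were called there in NanogBiD only, and H3K4me1 (24 tags) in NanogWT only. In the intron at 87.1 kb FLAG was 17 tags in both arms, BRG1 was 11 tags in NanogBiD, and H3K4me1 was 12 tags in NanogWT. NanogWT alone had FLAG at 94.0 and 124.6 kb, at 10 tags each, and NanogBiD alone at 39.5 kb, at 10 tags.

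Tfcp2l1, a Grainyhead-family factor downstream of LIF and STAT3, lies at chromosome 1, 118627945 to 118685168, on the plus strand, and was the gene where BRG1 ran the other way. NanogWT had 2 BRG1 peaks, of 8 tags at the start site and 10 tags in the intron at 45.9 kb, and NanogBiD had 0. A loss of 2 or more was seen at 1.64% of all protein-coding genes, those without a BRG1 peak among them. The window was 97.2 kb long, where the median over all protein-coding genes was 57.4 kb. In the intron NanogWT also had FLAG at 10 tags and H3K4me1 at 18 tags, and no list of NanogBiD had a peak there. At the 5′ end of the gene FLAG was called in NanogBiD, with 24 tags in the region 2.0 kb upstream and 13 tags at the start site, where NanogWT had none. The upstream region, with the octamer shown above, also had H3K27ac at 16 tags in NanogBiD alone. H3K27ac at the start site was 14 tags in NanogWT and 13 in NanogBiD. These are low peaks. The BRG1 peak at the start site had a score of 50.7, and 96.7% of its list stood at least as high, as did 79.8% for the peak in the intron. The FLAG peak at the start site had a score of 63.7. The taller FLAG peak upstream, with a score of 198.3, had no BRG1 call. H3K4me1 had 5 peaks in NanogWT and 1 in NanogBiD, of 16 tags at the start site.

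Prdm14, a PR-domain regulator that restrains differentiation and DNA methylation in naive cells and germ cells, lies at chromosome 1, 13113457 to 13127163, on the minus strand, and was the least occupied gene. No BRG1 or H3K27ac peak was called in either arm. Its one FLAG peak, 7.5 kb upstream, was of 15 tags in NanogBiD, and H3K4me1 was called there in NanogBiD too, at 11 tags. FLAG in NanogBiD with none in NanogWT was seen at 4.74% of the genes with a FLAG peak. H3K4me1 had 3 peaks in each arm. The one 23.0 kb downstream of the 5′ end was 17 tags in NanogWT and 9 in NanogBiD (ratio 0.529, interval 0.208 to 1.26).

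**Figure D2:**
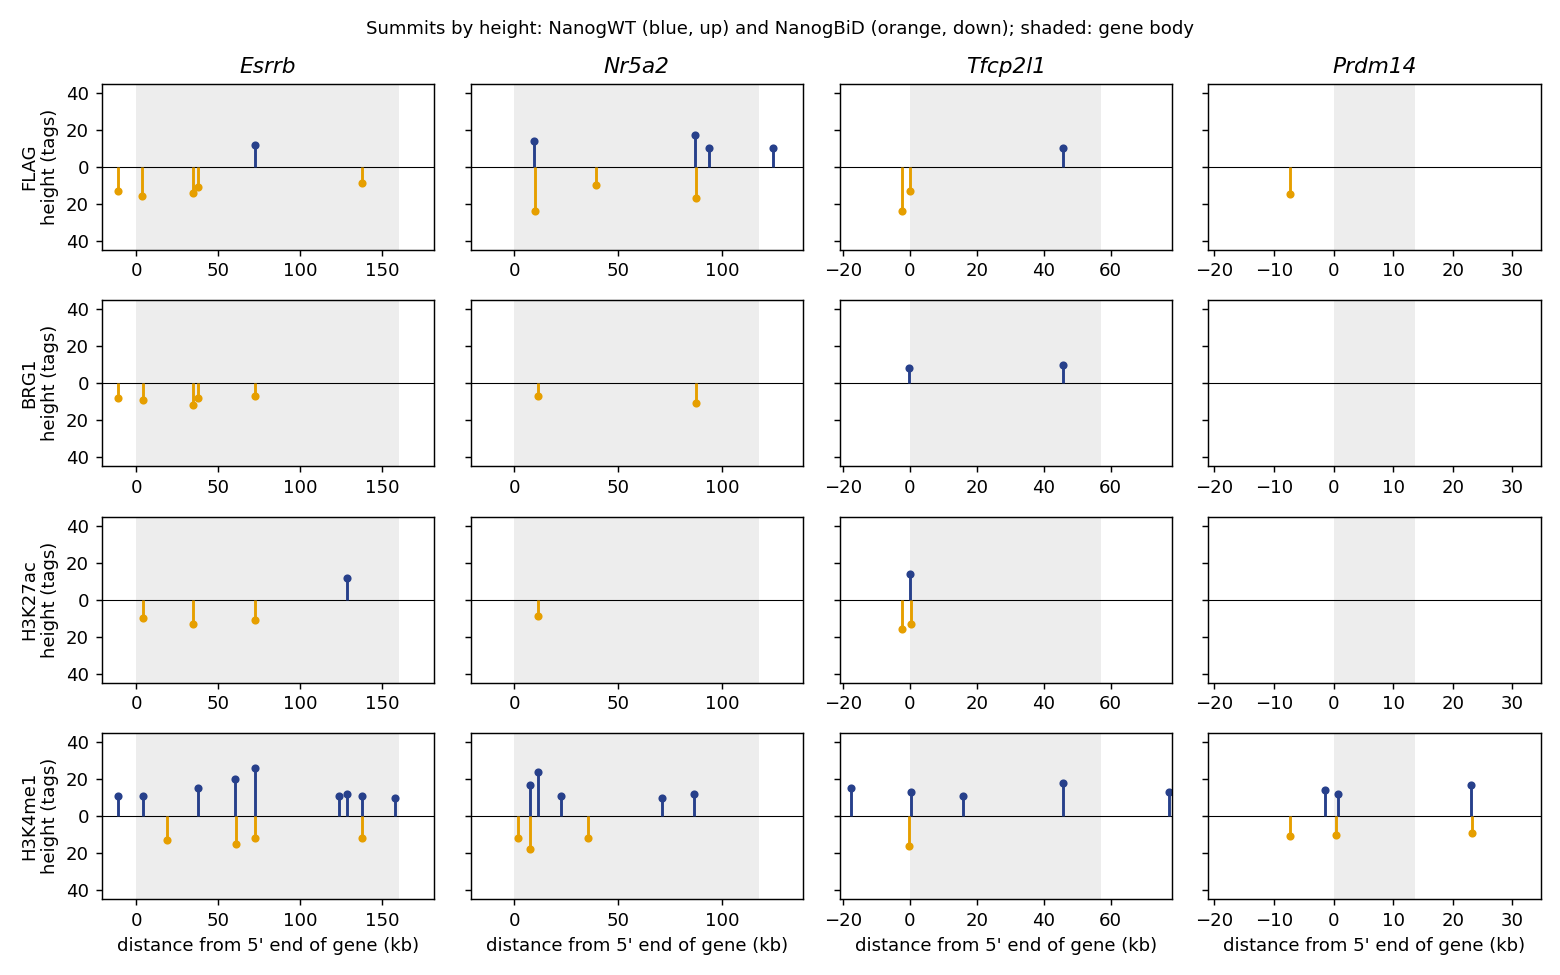
Summit heights in tags (y axis, NanogWT upwards in blue and NanogBiD downwards in orange) against distance in kb from the gene's 5′ end (x axis), with the gene body shaded, for each target and 1 library per arm. At Esrrb the BRG1 row holds 5 NanogBiD summits of 7 to 12 tags and none of NanogWT, at Tfcp2l1 it holds only 2 NanogWT summits, and the H3K4me1 row of Esrrb holds 9 NanogWT and 4 NanogBiD summits.

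Klf2, Klf4 and Klf5 encode Krüppel-like zinc-finger factors with overlapping roles in self-renewal, and Klf4 is one of the Yamanaka factors, though it was not among the factors introduced here. Klf2 lies at chromosome 8, 72319033 to 72321656, on the plus strand. Its start site had BRG1 at 23 tags in NanogWT and 19 in NanogBiD (ratio 0.826, interval 0.425 to 1.59), and FLAG at 20 and 22 tags. The element 8.0 kb upstream, which carries the 2 AP-1 matches shown above, had FLAG and BRG1 at 17 tags each in NanogBiD, and H3K27ac at 9 tags, where NanogWT had only H3K4me1, at 13 tags. It was the tallest of the regions with FLAG and BRG1 in NanogBiD alone.

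The study also drew Klf4 from its RNA-seq and ATAC-seq of the same arms, and reported that adding it helped reprogramming by Nanog and Oct4. The gene lies at chromosome 4, 55527143 to 55532466, on the minus strand. Its start site differed little, with FLAG at 25 tags in both arms, BRG1 at 23 and 22, H3K27ac at 33 and 37 and H3K4me1 at 18 and 19. The region 17.5 kb downstream of the 5′ end had all 4 targets in both arms, with H3K27ac at 18 tags in NanogWT and 24 in NanogBiD (ratio 1.33, interval 0.694 to 2.61). The region at 6.1 kb, just past the end of the gene, was different. FLAG stood at 31 tags in NanogWT and 20 in NanogBiD (ratio 0.645, interval 0.349 to 1.17), while BRG1 was called in NanogBiD alone, at 17 tags. H3K4me1 was called there in NanogWT alone, at 15 tags, and H3K27ac in neither arm. The FLAG peak with the lower summit was therefore the one with BRG1, and it had an AP-1 match within 50 bp of the summit in both lists.

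Klf5 lies at chromosome 14, 99298691 to 99315036, on the plus strand. At its start site FLAG was 34 tags in NanogWT and 23 in NanogBiD (ratio 0.676, interval 0.381 to 1.18), BRG1 was 17 and 19, and H3K27ac was 24 in both. The region 26.2 kb downstream of the 5′ end, beyond the gene's end, had taller FLAG, BRG1 and H3K27ac summits in NanogBiD. FLAG was 16 tags in NanogWT and 30 in NanogBiD (ratio 1.88, interval 0.990 to 3.68). BRG1 was 13 and 21, a ratio of 1.62 (0.772 to 3.51), and H3K27ac was 21 and 28, a ratio of 1.33 (0.730 to 2.47). H3K4me1 was 16 and 13 tags at the same place. All 4 intervals contained 1, the last ratio being 0.812 (0.360 to 1.80). NanogWT alone had FLAG at 19.5 and 24.9 kb, at 8 and 15 tags. The one FLAG peak of NanogBiD alone, at 9 tags, straddled the window's upstream edge.

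Tbx3, a T-box factor that acts downstream of LIF signalling and also patterns limbs and heart, lies at chromosome 5, 119670669 to 119684724, on the plus strand. Its start site held the tallest FLAG summit among the 8 genes in NanogWT, 41 tags, which only 2.42% of that list's peaks equalled or passed. NanogBiD had 28 there (ratio 0.683, interval 0.407 to 1.13). BRG1 was 27 and 32 tags, and H3K27ac 30 and 32. A second region, 10.2 kb into the gene and within 2 kb of an internal annotated start site, had FLAG, BRG1 and H3K27ac at 11 tags each in NanogBiD alone and H3K4me1 at 14 tags in both arms.

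**Figure D3:**
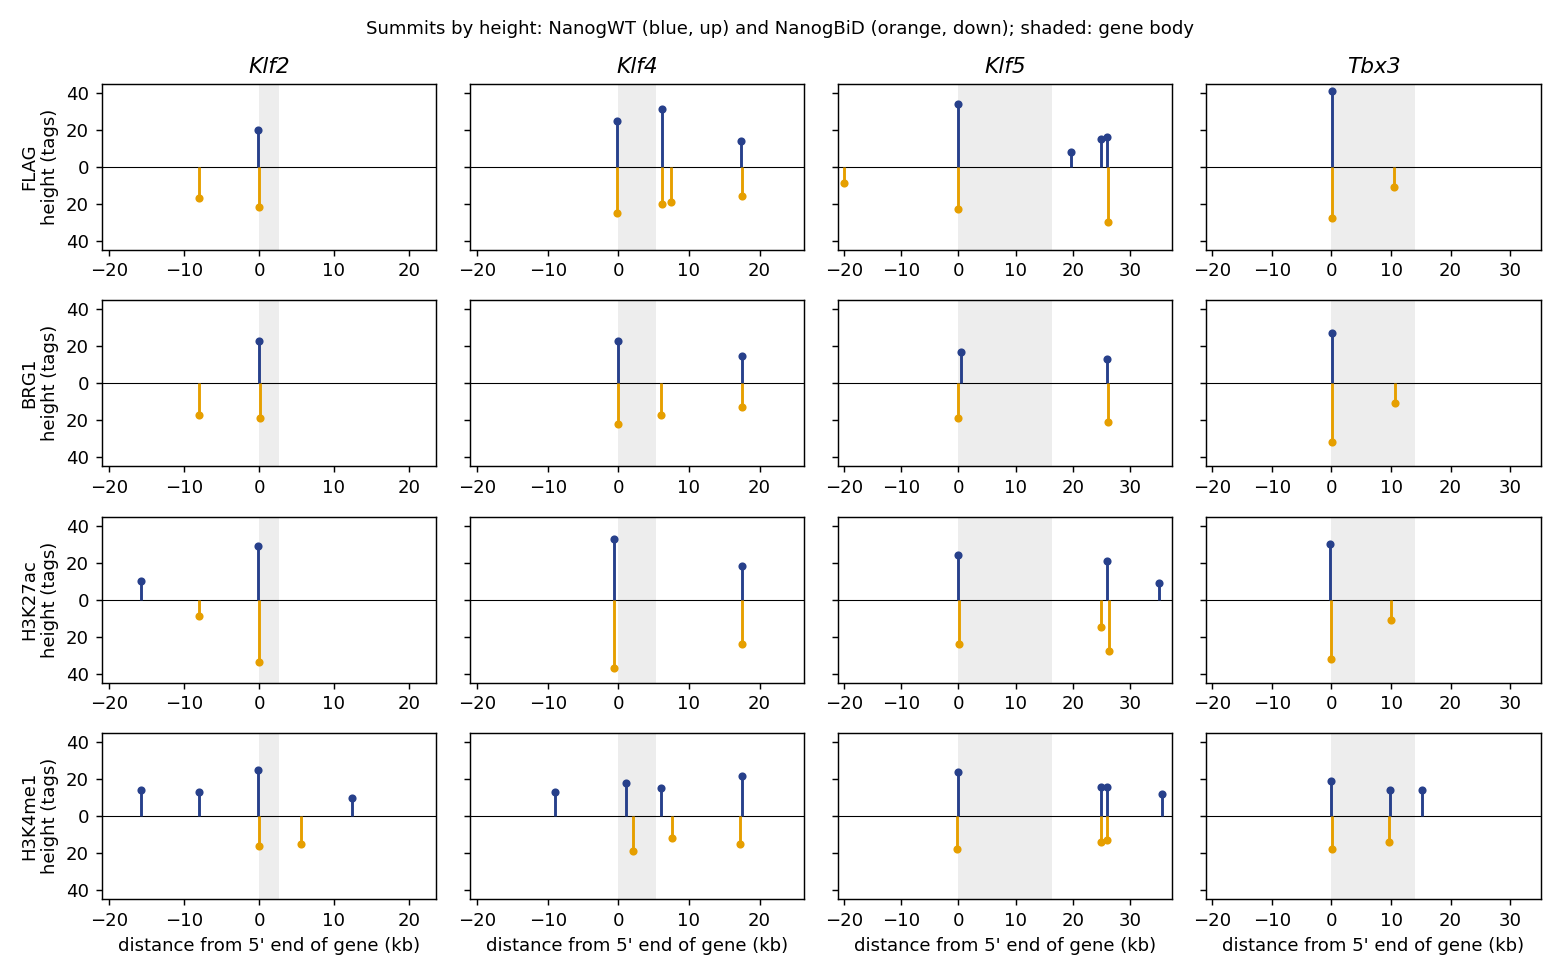
Summit heights in tags (y axis, NanogWT upwards in blue and NanogBiD downwards in orange) against distance in kb from the gene's 5′ end (x axis), with the gene body shaded, for each target and 1 library per arm. The start sites carry summits of all 4 targets in both arms, and the added NanogBiD BRG1 summits lie 8.0 kb upstream of Klf2, 6.0 kb from the 5′ end of Klf4 and 10.7 kb into Tbx3.

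Merging the FLAG and BRG1 lists gave 28 regions at the 8 genes, and 6 of them had both FLAG and BRG1 in NanogBiD and neither in NanogWT, the class of 11.1% of such regions genome-wide. Esrrb held 4 of the 6, and Klf2 and Tbx3 1 each. The 6 regions with all 4 peaks (23.7% genome-wide) lay at Klf2, Klf4, Klf5 and Tbx3. FLAG in both arms with BRG1 in NanogBiD alone was found in 3 regions (15.2%), 2 at Nr5a2 and 1 at Klf4. The reverse of the first class, both in NanogWT alone, was the Tfcp2l1 intron (1.55%). The count of 6 rests on low peaks. It was 1 with peaks of a score of at least 100, 1 with heights of at least 15 tags, and 0 with each list limited to its 20000 top-scoring peaks.

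When the peaks of all 8 lists were merged, 50 regions resulted, 13 of them within 2 kb of a start site of the gene itself. BRG1 was called in both arms in 6 regions, at 13 to 27 tags in NanogWT and 13 to 32 in NanogBiD. It was called in NanogBiD alone in 10 regions, at 7 to 17 tags with a median of 10, and in NanogWT alone in 2, at 8 and 10 tags. Shares genome-wide are of the regions with that target in either arm. For BRG1, with 18 of the 50, they were 48.4% for NanogBiD alone and 9.91% for NanogWT alone when only its 2 lists were merged. With all 8 lists merged, as for the 50 regions, they were 47.9% and 9.44%. The FLAG shares given next, and the shares of the next paragraph, are also of all 8 lists merged. Of the 10 BRG1 regions of NanogBiD alone, 8 lay away from start sites of the gene, as did 37 of all 50. FLAG was alike, with 9 regions of both arms at 14 to 41 tags in NanogWT. It had 13 of NanogBiD alone at 9 to 24 tags (33.5% genome-wide) and 6 of NanogWT alone at 8 to 15 tags (15.5%). H3K27ac had 7 regions of both arms, at 14 to 33 tags in NanogWT. It had 8 of NanogBiD alone at 9 to 16 tags (29.1% genome-wide with only its 2 lists merged, 28.7% with all 8). It had 3 of NanogWT alone at 9 to 12 tags (14.6% and 14.2%). For FLAG the median NanogBiD height was 13 tags in regions of NanogBiD alone and 23 in regions of both arms, and for H3K27ac it was 11 and 28.

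The other targets were then read in the 10 regions with BRG1 in NanogBiD alone, beside the share over the 27847 such regions of the genome. NanogBiD had FLAG in 9 of the 10 (87.6% genome-wide) and NanogWT in 4 (54.2%). H3K27ac was called in 6 in NanogBiD (39.8%), and none of the 10 had it in NanogWT (17%). H3K4me1 was in 9 of the 10 in NanogWT (40.1%) and in 2 in NanogBiD (43.7%). The FLAG count of NanogBiD was thus near the genome's share, and the other differences, over 10 regions at 5 genes of which Esrrb held 5, were not tested. Over all 50 regions, H3K4me1 without H3K27ac was found in 27 in NanogWT (34% of all regions of the genome) and 11 in NanogBiD (20.4%). Both marks together were found in 10 regions in each arm (22.8% in NanogWT and 24.6% in NanogBiD). Of the 43 regions with H3K4me1 in either arm, 22 had it in NanogWT alone (34.1% of such regions genome-wide). In 11 of those 22 it was the only peak of any list (52.2%). H3K4me1 was called in NanogBiD alone in 6 of the 43 (16.8%).

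**Figure D4:**
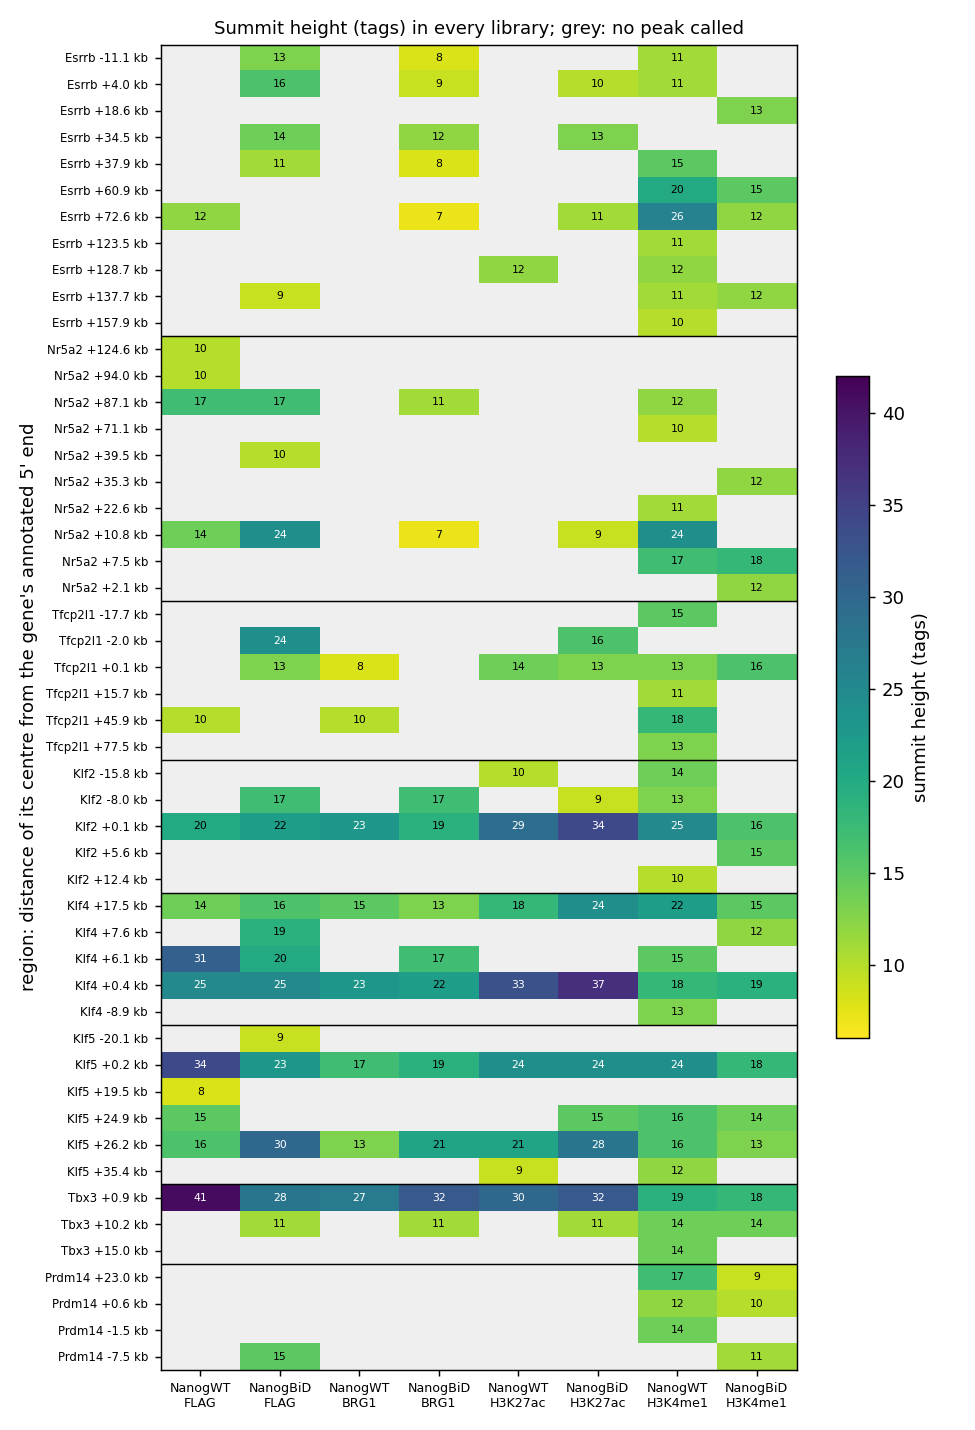
Summit heights in tags (colour and printed number) of the 50 regions (rows, named by gene and the distance of the region's centre from its 5′ end) in the 8 libraries (columns), grey where no peak was called. Rows at the start sites of Klf2, Klf4, Klf5 and Tbx3 are filled in all 8 columns, and the 10 regions with BRG1 in NanogBiD alone hold 7 to 17 tags and mostly have H3K4me1 in the NanogWT column only.

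Where both arms had a peak, heights moved in both directions. The median log2 change from NanogWT to NanogBiD was 0.00 for FLAG over 9 regions, where the median of all shared regions was 0.15. It was 0.05 for BRG1 over 6 regions (0.14 for all), 0.17 for H3K27ac over 7 (0.08) and -0.26 for H3K4me1 over 15 (-0.18). The BRG1 median lay below 0 once the shift of all regions was taken off, at -0.09. Summits were at least 1.5 times as high in NanogBiD at 2 of 9 FLAG regions (22% of all shared regions), those of Nr5a2 and Klf5, and at 1 of 6 BRG1 regions (20.5%), that of Klf5. In the other direction 1 of 9 FLAG regions (8.45%), at Klf4, and none of the 6 BRG1 regions (4.53%) reached that size. No H3K27ac region of the 7 did in either direction (9.59% and 4.01%). H3K4me1 summits were at least 1.5 times as high in NanogWT at 3 of 15 regions (11.7%), at Esrrb, Klf2 and Prdm14, and in NanogBiD at none of the 15 (1.06%).

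**Figure D5:**
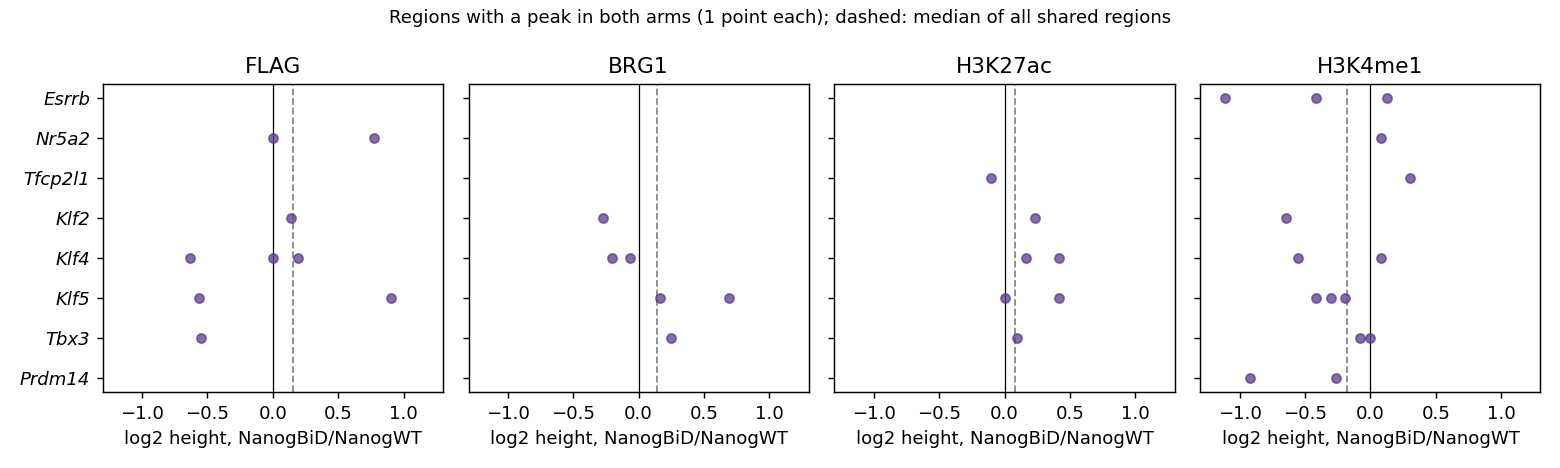
Log2 ratio of summit height, NanogBiD over NanogWT (x axis), at each region with a peak in both arms, by gene (y axis) and target, with the median of all shared regions of the genome as a dashed line. FLAG points spread from -0.63 at Klf4 to 0.91 at Klf5, and 10 of the 15 H3K4me1 points lie below 0.

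The overlap of FLAG with BRG1 at these genes was near that of the whole lists in each arm. In NanogWT 7 of 15 FLAG peaks overlapped a BRG1 peak, 46.7% (21.3 to 73.4%), against 44.1% of the whole list. In NanogBiD 15 of 22 did, 68.2% (45.1 to 86.1%), against 64.7%. Conversely, FLAG overlapped 7 of 8 BRG1 peaks in NanogWT (84.4% of the whole list) and 15 of 16 in NanogBiD (90.5%). The overlap of FLAG with H3K27ac was 6 of 15 peaks (16.3 to 67.7%) in NanogWT and 13 of 22, 59.1% (36.4 to 79.3%), in NanogBiD, where the whole lists had 48.9% and 48.3%. The intervals of the arms overlapped in both comparisons.

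Motifs were searched within 50 bp of the FLAG summits, with SOX (ACAANGG), a nuclear receptor element of the ESRRB and NR5A2 type (TCAAGGTCA), KLF (GGGTGTGG) and the paired TFCP2L1 half-sites beside the 3 named above. AP-1 letters stood at 2 of 15 summits in NanogWT, at Tfcp2l1 and Klf4, where 8.14% of all FLAG summits held them. They stood at 4 of 22 in NanogBiD (10.4%), at Klf2, Klf4, Klf5 and the Esrrb intron at 37.9 kb. The AP-1 letters printed for the Esrrb intron at 34.5 kb lay beyond 50 bp of its summit, and TEAD alone was counted there. The octamer was at 1 summit, upstream of Tfcp2l1 in NanogBiD (2.49%), and KLF letters at 1, downstream of Klf4 (0.741%). Any of the 7 motifs was at 3 of 15 summits in NanogWT (22.2% of all) and 7 of 22 in NanogBiD (24.5%). TEAD letters were at 1 summit in NanogWT (7.4%) and 2 in NanogBiD (6.75%). The letters of SOX, of the nuclear receptor element and of TFCP2L1 were not in these windows at the 8 genes. Over all summits of NanogWT and NanogBiD, SOX letters were at 5.44% and 6.01%, the nuclear receptor element at 0.0679% and 0.102%, and TFCP2L1 at 0.957% and 0.788%. With 100 bp on either side, SOX letters were at 1 of 15 and 2 of 22 summits (10.7% and 11.5%).

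The other pluripotency genes were counted in windows drawn by the same rule. Over a list of 20, which includes Pou5f1, Sox2, Nanog, Sall4 and the LIF pathway genes Stat3, Socs3 and Lifr, BRG1 peaks numbered 33 in NanogWT and 53 in NanogBiD, which is 1.61 times as many where the whole lists gave 1.74. Of the 16 genes with a BRG1 peak, 10 had more in NanogBiD (53.2% of all such genes), 1 fewer (12.7%) and 5 the same number. The totals were 68 and 75 for FLAG, a ratio of 1.10, 31 and 44 for H3K27ac, 1.42, and 79 and 65 for H3K4me1, 0.823. Among the 18 genes with a FLAG peak, FLAG was in NanogWT alone at Sox2 and Tcl1 (2.17% of all such genes). The summits there were low, at up to 10 and 7 tags, where the lowest of that list was 6. FLAG was in NanogBiD alone at Gbx2 (4.74%), at up to 16 tags. BRG1 was in NanogBiD alone at 3 of the 16 (8.27%). Gbx2, a homeobox gene, had 2 BRG1 peaks of up to 14 tags, and Zfp42, the Rex1 marker gene, had 1 of 10 tags. The third was Pou5f1, with 1 peak of 67 tags, 4330 bp long and 7.3 kb from the 5′ end, whose score was only 70.2. FLAG (65 tags) and H3K4me1 (78 tags) had peaks at the same place in NanogBiD and none there in NanogWT. NanogWT too had long, low-scoring peaks elsewhere in this window. H3K4me1 had 46 tags over 4712 bp with a score of 54.9, and FLAG 15 tags over 2827 bp with a score of 57.5. These cells carry an Oct4 transgene and an Oct4-GFP reporter, and the part of those copies in the Pou5f1 value was not tested.

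The 10 fibroblast markers, all with BRG1 peaks, had 27 in NanogWT and 43 in NanogBiD. The ratio was 1.59, against 1.74 for the whole lists. More were counted in NanogBiD at 7 of the 10 (53.2% of genes with a BRG1 peak) and fewer at none of the 10 (12.7%). Col3a1, a fibrillar collagen gene, was the one marker with BRG1 in NanogBiD alone (8.27%), at 2 peaks of up to 12 tags. The totals were 50 and 55 for FLAG, 33 and 38 for H3K27ac, and 40 and 35 for H3K4me1.

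Genes elsewhere with the nearest profiles were sought for each member. Likeness was measured as the distance between the log2 of 1 plus the summed summit heights over the 8 libraries, over protein-coding genes with separate windows. The nearest gene was Tmem260 for Klf4, at 0.288, Gm26965 for Klf5, at 0.308, and Wnt2b for Tbx3, at 0.381. It was Arhgdig for Prdm14, at 0.462, and Mis18a for Klf2, at 0.472. The profiles with BRG1 in 1 arm had more distant neighbours, which were Ptgs1 for Nr5a2, at 0.998, Tesc for Esrrb, at 1.42, and 4930404H24Rik for Tfcp2l1, at 1.52. These neighbours had BRG1 in the same arm alone. Nr5a2, Esrrb and Tfcp2l1 also had the longest windows of the 8 genes, of 157.9, 200.5 and 97.2 kb. Among the 8 genes the nearest pair was Klf4 and Klf5, at 0.638.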

How the data were processed

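CUT&Tag peaks of 4 targets were analysed in 2 arms, 1 library per target and arm. Per the study's methods, reads were trimmed with Trim Galore 0.6.4, mapped to mm10 with Bowtie2 2.4.5 and filtered with SAMtools 1.16.1 (repetitive, low-quality and mitochondrial reads removed). Replicates were merged before MACS 1.4.2 called peaks, keeping 1 tag per position, with no control named. The study's reporting summary gives a general minimum of replication for its experiments, but the number merged into each of these libraries is not given in the sources used here. The deposited peak lists give a MACS score for each peak, and the deposited summit lists give the signal, a tag pileup height not scaled to depth. A shallower library therefore has fewer and lower peaks. The titles give H3K4me1 and another label H3K4me for the same libraries.

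Genes came from GENCODE M21 (mm10), and sequences from RefSeq's GRCm38.p6. A peak was assigned to a gene when it overlapped its window by at least 1 bp, and regions were merged from overlapping or touching peaks with Python 3.11.15, pandas 2.3.3 and pysam 0.24.0. Ratios carry exact binomial 95% intervals. Code was tested on simulated data. The 8 genes, the other lists, the motifs and the alternatives were chosen with earlier results of these data known. Text names all 8 genes, their tallest FLAG regions, regions with BRG1 in 1 arm, and other listed genes with BRG1 in 1 arm. Alternatives were scores of at least 100, equal list lengths, heights of at least 15 tags, other windows and merging rules.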

Additional observations from a re-analysis of the deposited data

How the results depend on the processing

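The regions with FLAG and BRG1 in NanogBiD alone fell from 6 to 1 with scores of at least 100, to 0 when each list was limited to its 20000 top-scoring peaks and to 1 with heights of at least 15 tags, each of which keeps fewer peaks. The median BRG1 height change of 0.05 turned to -0.09 after centring, -0.14 with scores in place of heights and -0.06 with 50 kb flanks. Summits with a motif match in NanogWT rose from 3 to 6 with 100 bp on either side. The other 55 of 62 recomputed values were counted as unchanged, which did not mean that they stayed equal. The FLAG median height change of 0.00 had no direction to reverse, and it was -0.15 after centring and -0.08 with scores. The region count was 4 with 5 kb flanks and 8 with 50 kb flanks. Ratio intervals were wide, at 0.808 to 5.40 for BRG1, so large changes of a ratio could pass as unchanged. The BRG1 ratio was 1 (7 peaks in each arm) with the 20000 top-scoring peaks. The H3K27ac ratio was 1 (6 in each) with that setting and with scores of at least 100. The H3K4me1 ratio ranged from 0.467 to 0.640, and its interval contained 1 in all 7 alternatives. No paired analysis was possible because only 1 merged library stood for each group. Depth is unknown, so a missing peak is a peak not called, not an absence of binding.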
